A study of Drosophila melanogaster with 11 samples.

Results

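The genes described here encode the machinery that copies DNA and the cyclin-dependent kinase system that times the cell cycle, measured in Drosophila melanogaster eggs and embryos around the passage from maternal to zygotic control. They were taken by name: every named gene on the array whose symbol begins with Orc, Mcm, RPA, PCNA, RfC, DNAlig, DNApol, PolA, PolE, PolD, Rbf or Cdk, or with Cyc and then a capital letter, and in addition twe, lok, grp, stg and dup if spotted. This rule found 40 of the 6793 named genes. Orct, an organic cation transporter gene, and Rbfox1, an RNA-binding protein gene, fit the rule by their letters only and were set aside, which left 38 members. Of these, 7 act in the licensing of replication origins or in initiation (Orc1, Orc2, Orc4, Orc5, Mcm3, Mcm5 and Mcm10). Another 5 are subunits of replicative polymerases (PolA1, PolA2, PolD2, PolE1 and PolE2). At the fork or in sealing DNA act 8 (RPA1, RPA2, RPA3, RfC3, RfC4, PCNA2, DNAlig1 and DNAlig4). Cyclins number 9 (CycB, CycC, CycD, CycE, CycH, CycJ, CycK, CycT and CycY). Cdks or retinoblastoma proteins number 7 (Cdk2, Cdk5, Cdk7, Cdk8, Cdk9, Rbf and Rbf2). The remaining members are the checkpoint kinase gene lok and the phosphatase gene twe. The genes stg, grp and dup were not among the named spots, nor were CycA, CycB3 and Cdk1, and they are not analysed here.

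Replication begins when the origin recognition complex and its partners load the MCM helicase onto DNA. Replication protein A (RPA) then coats the single strands, replication factor C loads the PCNA clamp, polymerases alpha, delta and epsilon copy the strands, and ligase joins the fragments, while cyclins bound to Cdks switch the cycle between phases. In the fly, the first nuclear divisions after fertilization alternate S phase and mitosis without gap phases and run on mRNA and protein that the mother stored in the egg. The cycles slow, and a replication checkpoint engages, at about the time when the zygotic genome is switched on and much maternal mRNA is cleared, and embryos of smg mutant mothers are known to retain many maternal mRNAs and to go on dividing without this checkpoint.

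3 sets of material were hybridised to 2-colour cDNA microarrays, each against RNA of w1118 stage 14 oocytes, the last stage of egg development in the ovary. The smg group is material aged 2 to 3 h that is labelled SMG (4 arrays). smg encodes Smaug, an RNA-binding protein that represses and destabilises maternal transcripts. The labels name no allele, and for smg replicate 4 the source is given as SMGoverDf. The wild-type group is w1118 embryos of the same age (4 arrays), and the last group is w1118 unfertilized eggs aged 4 to 6 h (3 arrays), which have no zygotic genome. The sources used here do not say whether replicates came from separate collections, so p-values measure the spread between these arrays alone.

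Values are log2 ratios of sample to oocyte, after each array's median over its named genes was set to 0, so a value below 0 is a transcript that is scarcer relative to the median transcript than in oocytes. The direction of the ratio is not stated with the deposited values and is likely from the titles and from known genes: the yolk genes Yp1 to Yp3 had a median below 0 on all 11 arrays, between -2.71 and -1.06. In bulk RNA, fewer cells of a type and less RNA per cell cannot be told apart. At 2 to 3 h the sample carried Alexa Fluor 647 and the oocyte RNA Alexa Fluor 555 by indirect labelling, whereas the unfertilized-egg sample carried Cy3 and its oocyte RNA Cy5 by direct labelling, and no array of a group had the dyes swapped, so the part of dye bias in the oocyte comparisons was not tested. Age, fertilization, dye and labelling method cannot be told apart between wild-type embryos and unfertilized eggs.

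Some arrays stand apart. Only 51.1% of spots had a value on smg replicate 1 and 48.9% on wild-type replicate 1, against 74.98% to 99.1% on the others, and before centring the gene medians of these 2 arrays were -4.43 and -4.01. Across all genes the Pearson correlation of smg replicate 3 was -0.51 with smg replicate 1, -0.34 with replicate 2, -0.49 with wild-type replicate 1 and 0.76 with smg replicate 4. Over the members alone smg replicate 4 was at -0.38 with smg replicate 1, 0.15 with replicate 2 and 0.78 with replicate 3. It was at -0.49, -0.34, -0.23 and 0.14 with wild-type replicates 1 to 4. All these correlations are across genes, which are not independent replicates. The yolk gene median on smg replicate 3 was -1.75, below 0 as on the other arrays. Yp1, Yp2 and Yp3 each lay below 0 on all their smg arrays. Of 12 early zygotic genes tested in smg, 6 lay above 0 on all their smg arrays and 0 lay below on all. By these genes smg replicate 3, where it had a value, ran in the direction of the other smg arrays. The median of the early zygotic genes on it was -0.02, and the cause of its correlations below 0 was not tested. The smg differences described for single members are also given with the sign of smg replicate 3 turned. No setting turned the sign of smg replicate 4. In a list of early zygotic genes the median per array lay between -0.02 and 1.17 in smg, between 1.14 and 1.82 in wild-type embryos and between -0.12 and 0.16 in unfertilized eggs, and 8 of 11 genes tested rose in wild-type embryos.

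Most calls among the members came from unfertilized eggs, where 14 of 38 passed the test as lower than in oocytes and 1, Cdk7, as higher. The 14 were RPA1, Cdk2, lok, Rbf, CycT, DNAlig1, CycE, RfC4, Mcm5, RPA2, Orc4, Rbf2, Mcm3 and CycJ. Over all 6782 genes tested there, 11% were called, 10% as lower and 0.988% as higher. In wild-type embryos 2 of 37 members, lok and DNAlig1, fell below the oocyte level, where 3.3% of 6328 genes were called and 2.48% were called lower. The wild-type fit took its error from the smg arrays too, and with the wild-type arrays fitted alone 8 members passed, where 11.9% of genes did. Neither smg against oocytes nor smg against wild-type embryos gave a called member among 35 tested in each, where 0.0818% and 0.276% of all genes were called. Wild-type embryos against unfertilized eggs gave 0 of 37, where 0.301% of 6322 genes were called, in a fit that also took its error from the smg arrays. In these last 3 comparisons 2, 7 and 1 members had an unadjusted p under 0.05, by limma, where 10.4%, 10.1% and 3.24% of all genes did. Calls are by limma at a Benjamini-Hochberg adjusted p of 0.05 over all genes tested, two-sided, and the 3 oocyte comparisons share the oocyte RNA as their other channel, with the oocytes' own spread left out.

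**Figure D1:**
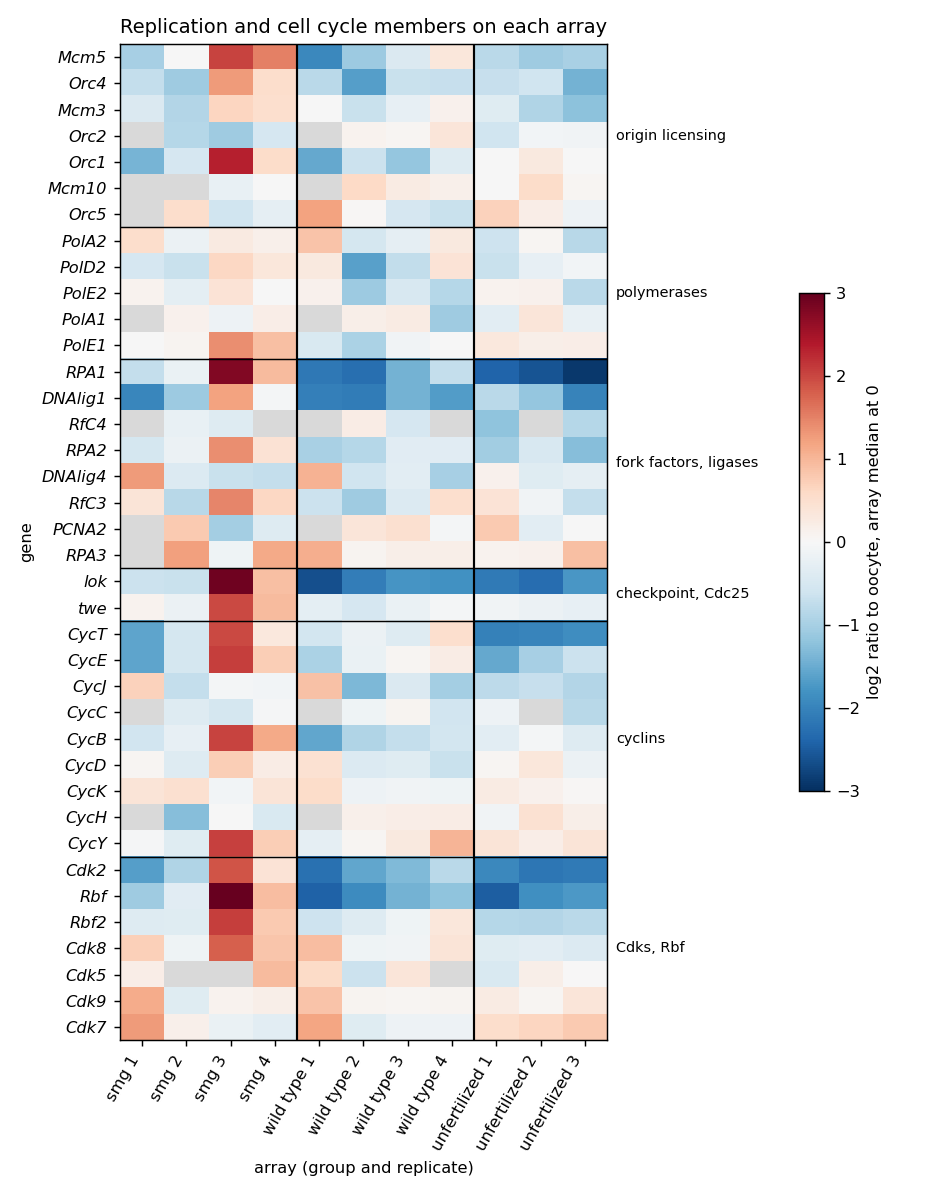
Log2 ratio to oocyte (colour, from blue below the array median to red above it) of the 38 members (rows, by role) on the 11 arrays (columns, smg, wild type and unfertilized, grey where there was no value). lok, RPA1, Rbf, Cdk2 and DNAlig1 are blue on all wild-type and unfertilized arrays, while smg replicate 3 is red for most members, up to 3.05 for Rbf.

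On the level of single arrays, the median of the members was -0.40, -0.36, 0.73 and 0.41 on smg replicates 1 to 4. It was -0.29, -0.52, -0.29 and -0.10 on wild-type replicates 1 to 4, and -0.34, -0.14 and -0.41 on unfertilized replicates 1 to 3. The median thus lay below 0 on all wild-type and unfertilized arrays. The smg arrays fell on both sides, replicates 1 and 2 below and replicates 3 and 4 above, with replicate 3 below once its sign is turned. On smg replicate 4 only 11 of 37 members lay below 0, against 29 of 36 on smg replicate 2 and 28 of 38 on wild-type replicate 2. Those 2 smg replicates belong to different sets of slides, replicates 1 and 2 to the first and replicates 3 and 4 to the second. The sets were drawn here from the slide numbers in the titles, which name no set.

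**Figure D2:**
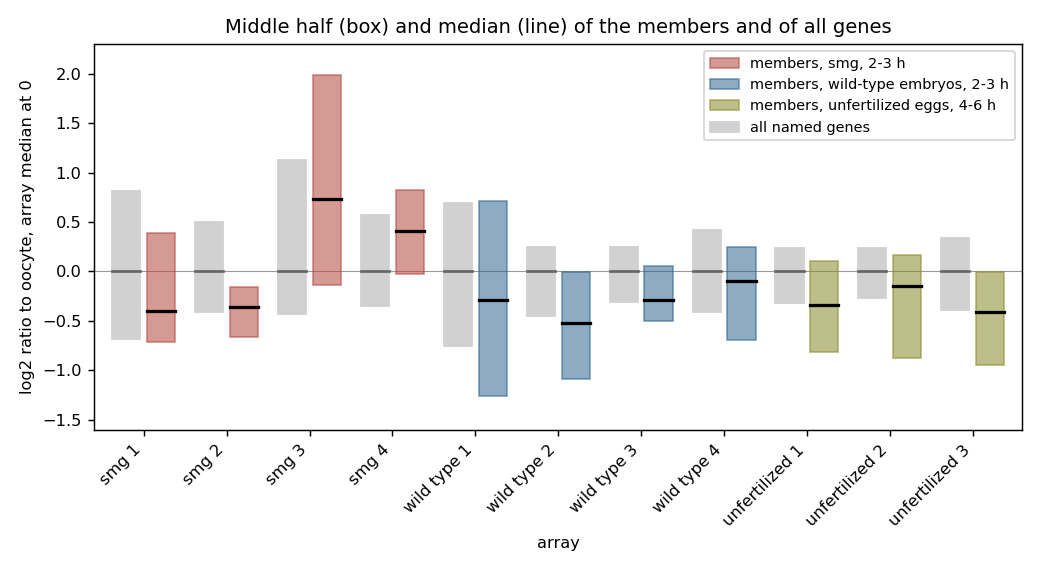
Interquartile range (box) and median (line) of the log2 ratio to oocyte on each array, for the members (coloured by group) and for all named genes (grey), whose median is 0 by construction. Member medians lie at or below -0.10 on the wild-type and unfertilized arrays and reach 0.73 on smg replicate 3, where the box of all genes is also widest.

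The widest gap between smg and wild-type embryos was in the checkpoint kinase gene. lok encodes the fly Chk2 kinase, which acts in the DNA damage checkpoint and, in the early embryo, disables nuclei with damaged DNA. It measured -0.64, -0.66, 2.92 and 0.91 on smg replicates 1 to 4, -2.64, -2.07, -1.76 and -1.82 on wild-type replicates 1 to 4, and -2.13, -2.28 and -1.74 on unfertilized replicates 1 to 3. All smg arrays lay above all wild-type and all unfertilized arrays, and the wild-type and unfertilized arrays overlapped. It was the lowest member mean in wild-type embryos, at -2.07 ± 0.40 (SD, n = 4; limma adjusted p = 0.0409), and was at -2.05 ± 0.28 (SD, n = 3; limma adjusted p = 2.94e-06) in unfertilized eggs. Its transcript was 2.71 higher in smg than in wild-type embryos (SE 0.68), which did not pass after adjustment (limma adjusted p = 0.154). Without smg replicate 3 the lok difference was 1.95 (limma adjusted p = 0.0834), and it was 1.25 once that array's sign was turned (limma adjusted p = 0.991). Within the first set of slides lok differed by 1.71 and within the second by 3.71, and with slide set as a block it passed (limma adjusted p = 0.00694).

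twe encodes a Cdc25-type phosphatase that is needed in meiosis and contributes maternally to the early divisions. It measured 0.10, -0.17, 1.98 and 0.94 in smg, -0.29, -0.51, -0.20 and -0.07 in wild-type embryos, and -0.11, -0.18 and -0.25 in unfertilized eggs. Only smg replicate 2 lay within the range of the wild-type arrays, and the wild-type and unfertilized values overlapped close to 0. smg exceeded wild-type embryos by 0.98 for twe (SE 0.47, limma adjusted p = 0.512), and by about 0 once smg replicate 3 had its sign turned.

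Among the factors of the fork, RPA1, the large subunit of the complex that coats single-stranded DNA, showed the deepest fall of the members in unfertilized eggs. It measured -0.71, -0.19, 2.79 and 0.96 in smg, -2.14, -2.26, -1.41 and -0.71 in wild-type embryos, and -2.41, -2.60 and -2.89 in unfertilized eggs. The 3 groups stood in that order, with smg highest and unfertilized eggs lowest, and no array of a group crossed into the next, although smg replicate 1 and wild-type replicate 4 were almost equal. RPA1 fell by 2.63 in unfertilized eggs (SE 0.18, limma adjusted p = 3.31e-07). In wild-type embryos its mean of -1.63 ± 0.72 (SD, n = 4) did not pass (limma adjusted p = 0.104), and with slide set as a block it did (limma adjusted p = 0.00474). Against wild-type embryos RPA1 was at 2.34 in smg (SE 0.67, limma adjusted p = 0.211), at 1.65 without smg replicate 3 and at 0.95 with its sign turned. The value was 1.75 within the first set of slides and 2.93 within the second, and with slide set as a block RPA1 passed (limma adjusted p = 0.00785).

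RPA2 and RPA3 encode the smaller subunits of the same complex. RPA2 measured -0.52, -0.17, 1.40 and 0.43 in smg, -0.97, -0.85, -0.35 and -0.33 in wild-type embryos, and -1.04, -0.48 and -1.27 in unfertilized eggs, where it fell (-0.93, SE 0.19, limma adjusted p = 0.00428). The 2 pairs of spots for RPA2 disagreed: in unfertilized eggs the first pair averaged -0.41 and the second, with no value on unfertilized replicate 2, -1.95. They averaged -0.22 and 1.21 in smg, and -0.25 and -0.82 in wild-type embryos. On smg replicate 1 and wild-type replicate 1 only the second pair had a value, and on smg replicate 2 only the first. Differences between arrays for RPA2 are thus in part differences between pairs. The level of RPA2 is therefore uncertain by more than its standard error, and without unfertilized replicate 1 it did not pass (-0.88, limma adjusted p = 0.0557). RPA3 did not follow the other subunits, with means of 0.74 ± 0.77 in smg (SD, n = 3), 0.38 ± 0.47 in wild-type embryos (SD, n = 4) and 0.38 ± 0.45 in unfertilized eggs (SD, n = 3), none past the test.

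DNAlig1 encodes the ligase that joins Okazaki fragments, and DNAlig4 the ligase of end joining in double-strand break repair. DNAlig1 measured -1.95, -1.08, 1.21 and -0.05 in smg, -2.04, -2.10, -1.41 and -1.66 in wild-type embryos, and -0.81, -1.16 and -2.01 in unfertilized eggs. It lay below 0 on all wild-type and unfertilized arrays, and smg replicate 1 lay within the wild-type range. DNAlig1 fell in wild-type embryos (-1.80 ± 0.33, SD, n = 4; limma adjusted p = 0.0349) and in unfertilized eggs (-1.33 ± 0.62, SD, n = 3; limma adjusted p = 6.93e-04). In smg it averaged -0.47 ± 1.36 (SD, n = 4), and -1.07 with smg replicate 3 turned. The excess of DNAlig1 in smg over wild-type embryos was 1.33, and 0.73 after that turn. DNAlig4 was below 0 on most arrays and above it on smg replicate 1 (1.29), wild-type replicate 1 (1.04) and unfertilized replicate 1 (0.12), with group means between -0.21 and -0.12 and no call.

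The clamp loader subunits RfC3 and RfC4 and the clamp gene PCNA2 gave sparser data. RfC4, with a value on 6 arrays, measured -0.21 and -0.38 in smg, 0.22 and -0.49 in wild-type embryos, and -1.20 and -0.86 in unfertilized eggs. Its unfertilized arrays lay below all others, and its fall there passed the test (-1.03, SE 0.22, limma adjusted p = 0.00685), while the 2 to 3 h groups had 2 values each, under the minimum set for a test. With that minimum lowered to 2, RfC4 was not called in smg (limma adjusted p = 0.821) or wild-type embryos (limma adjusted p = 0.979) against oocytes. Without unfertilized replicate 1, RfC4 had a single value there and did not pass (-0.86, limma adjusted p = 0.152). RfC3 averaged 0.41 ± 0.94 in smg (SD, n = 4), -0.40 ± 0.67 in wild-type embryos (SD, n = 4) and -0.13 ± 0.56 in unfertilized eggs (SD, n = 3). PCNA2, a second PCNA gene of the fly, averaged -0.21 ± 0.92 in smg, 0.26 ± 0.28 in wild-type embryos and 0.15 ± 0.56 in unfertilized eggs (SD, n = 3 each). Neither passed in any comparison.

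Of the 7 origin genes, 3 fell in unfertilized eggs, where 10% of all genes did: the helicase subunits Mcm5 and Mcm3 and the origin recognition subunit Orc4. Mcm5 measured -0.99, -0.02, 2.04 and 1.503 in smg, -1.94, -1.09, -0.43 and 0.34 in wild-type embryos, and -0.81, -1.06 and -0.96 in unfertilized eggs. The unfertilized arrays lay close together inside the wide range of the wild-type arrays. The fall of Mcm5 in unfertilized eggs was 0.94 on the log2 scale (value -0.94, SE 0.17, limma adjusted p = 0.00175). In smg it exceeded wild-type embryos by 1.42 (SE 0.67, limma adjusted p = 0.512), by 0.95 without smg replicate 3 and by 0.40 with its sign turned.

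Orc4 measured -0.72, -1.06, 1.28 and 0.52 in smg, -0.81, -1.65, -0.67 and -0.69 in wild-type embryos, and -0.68, -0.59 and -1.41 in unfertilized eggs. It was below 0 on all wild-type and unfertilized arrays and passed in unfertilized eggs (-0.89, SE 0.20, limma adjusted p = 0.00685), with -0.96 ± 0.47 (SD, n = 4; limma adjusted p = 0.236) in wild-type embryos, where it passed with slide set as a block (limma adjusted p = 0.0419). Mcm3 measured -0.44, -0.88, 0.65 and 0.50 in smg, -0.02, -0.68, -0.26 and 0.14 in wild-type embryos, and -0.36, -0.90 and -1.24 in unfertilized eggs. Only the unfertilized mean of Mcm3 passed (-0.83, SE 0.20, limma adjusted p = 0.0107), and its arrays overlapped those of both other groups. Without unfertilized replicate 3, Mcm3 did not pass (-0.63, limma adjusted p = 0.0565).

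Orc1 and Orc2, which encode other subunits of the same complex as Orc4, were not called in any comparison, apart from Orc1 in the wild-type arrays fitted alone. The excess of Orc1 in smg over wild-type embryos was 1.17 with all arrays and 0.01 with smg replicate 3 turned. Orc1 measured -1.41, -0.51, 2.33 and 0.55 in smg, -1.54, -0.65, -1.15 and -0.38 in wild-type embryos, and -0.02, 0.29 and -0.0057 in unfertilized eggs. All wild-type arrays lay below all unfertilized arrays, by 1.02 on average (value -1.02, SE 0.65), and this did not pass the test. Orc2 measured -0.85, -1.08 and -0.50 on smg replicates 2 to 4, 0.10, 0.07 and 0.37 on wild-type replicates 2 to 4, and -0.59, -0.09 and -0.12 in unfertilized eggs. Here the order was the opposite of that of lok, with all smg arrays below all wild-type arrays (difference -0.99, SE 0.42, limma adjusted p = 0.442). The Orc2 difference was -0.27 once smg replicate 3 had its sign turned. Orc5, with means of -0.11 ± 0.58 in smg (SD, n = 3), 0.02 ± 0.85 in wild-type embryos (SD, n = 4) and 0.25 ± 0.43 in unfertilized eggs (SD, n = 3), and the replication initiation factor gene Mcm10, with -0.13 ± 0.15 in smg (SD, n = 2), 0.33 ± 0.24 in wild-type embryos and 0.21 ± 0.30 in unfertilized eggs (SD, n = 3 each), passed in no comparison.

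None of the 5 polymerase subunit genes was called in any comparison by limma, where 0.0818% to 11% of all genes were called. Among only 5 genes the absence of a call is near that share. PolE1, the catalytic subunit of polymerase epsilon, measured -0.0085, 0.09, 1.40 and 0.91 in smg, -0.46, -0.95, -0.09 and -0.01 in wild-type embryos, and 0.32, 0.18 and 0.20 in unfertilized eggs. Its wild-type arrays lay below every array of the other groups. smg exceeded wild-type embryos by 0.98 for PolE1 (SE 0.42, limma adjusted p = 0.442), and by 0.28 with smg replicate 3 turned in sign. PolE2, an accessory subunit of the same polymerase, measured 0.09, -0.30, 0.41 and -0.0042 in smg, 0.14, -1.10, -0.48 and -0.85 in wild-type embryos, and 0.10, 0.12 and -0.80 in unfertilized eggs. These groups overlapped, and PolE2 had the lowest wild-type mean of the polymerase genes, at -0.57 ± 0.54 (SD, n = 4; limma adjusted p = 0.365).

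PolA1 and PolA2 belong to the polymerase alpha and primase complex, which starts new strands, and PolD2 to polymerase delta, the lagging-strand enzyme. Their means ran between -0.05 and 0.20 in smg, between -0.42 and 0.08 in wild-type embryos and between -0.47 and -0.06 in unfertilized eggs. The spot pairs of PolA2 differed by 1.04 in smg (value -1.04, first minus second pair) and those of PolD2 by 0.98 in unfertilized eggs, so these means carry an added uncertainty. PolA2 passed in unfertilized eggs when replicate 2 was left out (-0.73, limma adjusted p = 0.0419) and not otherwise among the settings tried.

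Among the 9 cyclins CycT, CycE and CycJ fell in unfertilized eggs, where 10% of all genes did. CycT, the cyclin partner of Cdk9 in transcription elongation, measured -1.59, -0.52, 1.97 and 0.31 in smg, -0.54, -0.18, -0.39 and 0.50 in wild-type embryos, and -2.04, -1.98 and -1.87 in unfertilized eggs. The unfertilized arrays lay close together and below all wild-type and smg arrays. CycT fell by 1.96 in unfertilized eggs (SE 0.17, limma adjusted p = 2.68e-06) and was at -0.15 ± 0.46 (SD, n = 4) in wild-type embryos. Wild-type embryos exceeded unfertilized eggs by 1.81 for CycT (SE 0.62), the largest difference of a member in that comparison. It did not pass (limma adjusted p = 0.888). With the spread of the arrays made alike it passed (limma adjusted p = 0.00717).

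CycE, which with Cdk2 drives entry into S phase, measured -1.57, -0.54, 2.08 and 0.73 in smg, -0.95, -0.20, 0.05 and 0.23 in wild-type embryos, and -1.54, -0.99 and -0.64 in unfertilized eggs. The mean of CycE in unfertilized eggs was -1.06 ± 0.45 (SD, n = 3; limma adjusted p = 0.00197), with both pairs of spots close together (-1.07 and -1.05). Wild-type replicate 1 lay between unfertilized replicates 2 and 3, and the other wild-type arrays lay above all of these. CycJ, a cyclin of the germline and early embryo, measured 0.70, -0.71, -0.05 and -0.08 in smg, 0.87, -1.35, -0.44 and -1.02 in wild-type embryos, and -0.80, -0.69 and -0.88 in unfertilized eggs. The tight unfertilized arrays passed for CycJ (-0.79, SE 0.17, limma adjusted p = 0.00647), whereas the wild-type mean of -0.48 ± 0.98 (SD, n = 4) did not. Without unfertilized replicate 1 the CycJ call was lost (-0.79, limma adjusted p = 0.0519).

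CycB, the mitotic cyclin that acts with Cdk1, is the cyclin with the lowest wild-type mean. It measured -0.58, -0.26, 2.04 and 1.13 in smg, -1.55, -0.89, -0.71 and -0.56 in wild-type embryos, and -0.31, -0.07 and -0.40 in unfertilized eggs. All wild-type arrays lay below all unfertilized arrays, and smg replicate 1 alone lay within the wild-type range. The mean of CycB was 0.58 ± 1.22 in smg and -0.93 ± 0.44 in wild-type embryos (SD, n = 4 each), a difference of 1.51 (SE 0.55, limma adjusted p = 0.327). The CycB difference was 1.03 without smg replicate 3 and 0.49 with its sign turned. It was 0.80 within the first set of slides and 2.22 within the second, and with slide set as a block CycB passed (limma adjusted p = 0.0442).

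CycH, which with Cdk7 forms the Cdk-activating kinase, ran the other way in smg. It measured -1.28, -0.0018 and -0.46 on smg replicates 2 to 4, 0.16, 0.20 and 0.23 on wild-type replicates 2 to 4, and -0.11, 0.45 and 0.18 in unfertilized eggs. All smg arrays lay below all wild-type arrays, by 0.78 on average (value -0.78, SE 0.47, limma adjusted p = 0.669). Since smg replicate 3 was close to 0 for CycH, turning its sign left the difference at -0.78. The 2 spots of CycH were up to 2.54 apart on an array, more than for any other member. The other cyclins, CycC, CycD, CycK and CycY, had group means between -0.32 and 0.60 in smg, between -0.24 and 0.28 in wild-type embryos and between -0.50 and 0.33 in unfertilized eggs, and passed in no comparison.

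Cdk2, the partner of CycE, and Rbf, the retinoblastoma protein that holds E2F target genes silent, were among the lowest members in wild-type embryos and unfertilized eggs alike. Cdk2 measured -1.64, -0.90, 1.88 and 0.41 in smg, -2.25, -1.55, -1.32 and -0.81 in wild-type embryos, and -1.92, -2.17 and -2.13 in unfertilized eggs. Both wild-type embryos (-1.48 ± 0.60, SD, n = 4; limma adjusted p = 0.130) and unfertilized eggs (-2.07 ± 0.13, SD, n = 3; limma adjusted p = 1.83e-06) lay below 0 on every array, and the second of these passed. With slide set as a block Cdk2 passed in wild-type embryos as well (limma adjusted p = 0.00961). The smg arrays of Cdk2 ran from within the wild-type range to well above it, with a difference of 1.42 (SE 0.66, limma adjusted p = 0.499). It was 0.77 without smg replicate 3 and 0.48 with its sign turned.

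Rbf measured -1.08, -0.34, 3.05 and 0.93 in smg, -2.43, -1.89, -1.41 and -1.22 in wild-type embryos, and -2.47, -1.84 and -1.72 in unfertilized eggs. All smg arrays lay above all wild-type and unfertilized arrays. The 2 pairs of Rbf spots gave close group means, 0.53 and 0.75 in smg, -1.81 and -1.66 in wild-type embryos and -2.13 and -1.89 in unfertilized eggs. Rbf fell in unfertilized eggs (-2.01 ± 0.40, SD, n = 3; limma adjusted p = 5.92e-06). Its mean of -1.74 ± 0.54 (SD, n = 4) in wild-type embryos did not pass (limma adjusted p = 0.110), and with slide set as a block it did (limma adjusted p = 0.00766). Against wild-type embryos Rbf was at 2.38 in smg (SE 0.73, limma adjusted p = 0.231), at 1.57 without smg replicate 3 and at 0.85 with its sign turned. Within the sets of slides the Rbf difference was 1.45 and 3.30, and with slide set as a block it passed (limma adjusted p = 0.0143).

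Rbf2, the second retinoblastoma gene of the fly, measured -0.40, -0.37, 2.07 and 0.79 in smg, -0.62, -0.39, -0.12 and 0.33 in wild-type embryos, and -0.86, -0.87 and -0.80 in unfertilized eggs. Its unfertilized arrays lay below all others and passed (-0.84, SE 0.17, limma adjusted p = 0.00378). Cdk7 was the only member above the oocyte level by the test. It measured 1.28, 0.15, -0.19 and -0.31 in smg, 1.19, -0.36, -0.16 and -0.15 in wild-type embryos, and 0.53, 0.64 and 0.78 in unfertilized eggs. Cdk7 rose in unfertilized eggs (0.65, SE 0.17, limma adjusted p = 0.0249). This call was lost as deposited and when any of the 3 arrays was left out (limma adjusted p between 0.0754 and 0.157). Cdk8 and Cdk9, kinases of transcription, and Cdk5, a kinase best known in neurons, averaged 0.80 ± 0.78, 0.26 ± 0.61 (SD, n = 4 each) and 0.57 ± 0.54 (SD, n = 2) in smg. The means of Cdk8, Cdk9 and Cdk5 were 0.27 ± 0.50, 0.27 ± 0.39 (SD, n = 4 each) and 0.10 ± 0.65 (SD, n = 3) in wild-type embryos, and -0.36 ± 0.05, 0.23 ± 0.15 and -0.10 ± 0.33 in unfertilized eggs (SD, n = 3 each), and none of the 3 genes was called.

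**Figure D3:**
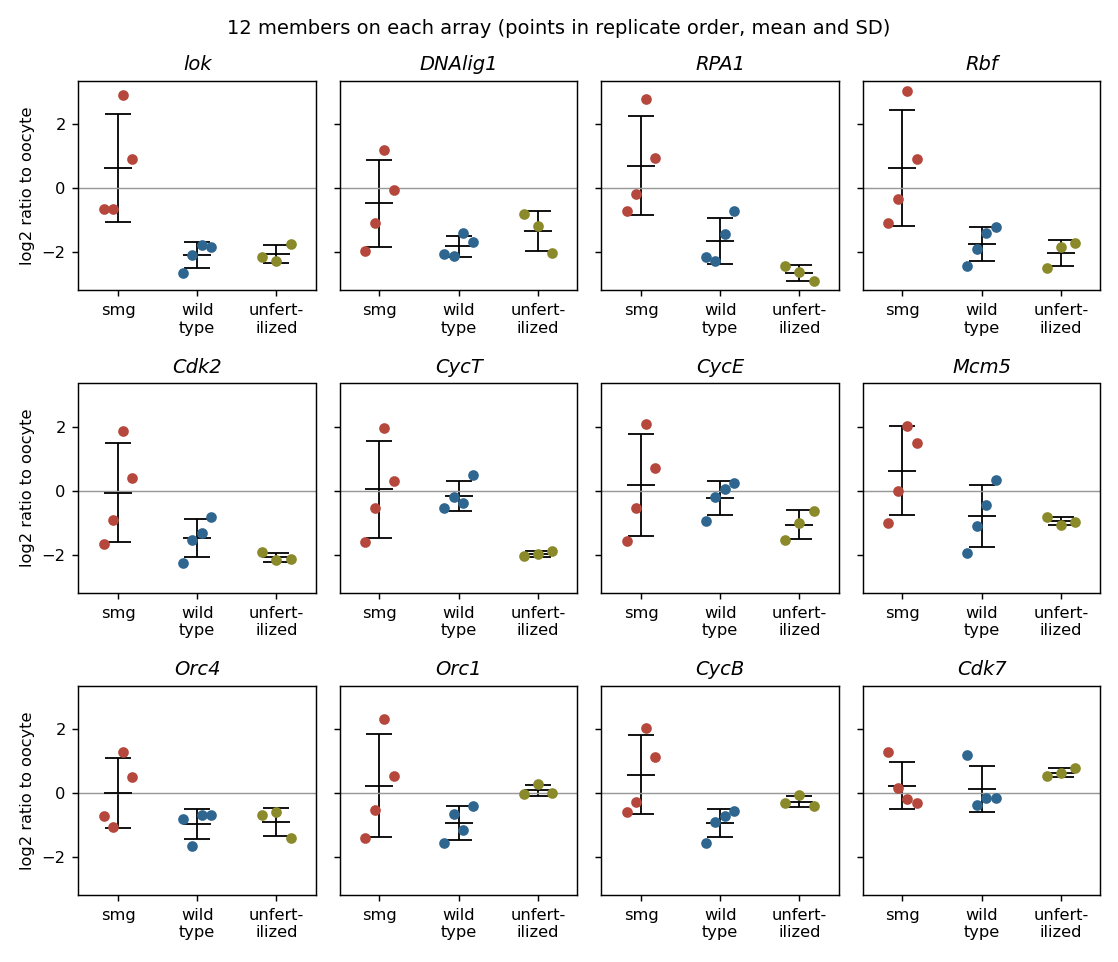
Log2 ratio to oocyte of 12 members on each array (points, in replicate order from left to right, with the group mean as a long bar and the SD as whiskers) for smg, wild-type embryos and unfertilized eggs. The smg points spread more widely than those of the other groups in most panels, with replicate 3 highest, while the 3 unfertilized points of CycT lie between -2.04 and -1.87.

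Setting smg against wild-type embryos addresses which maternal and zygotic changes differ in smg. Over the 35 members tested the median difference was 0.40, against 0.17 over all 5791 genes. 29 of the 35 estimates (82.9%) were above 0, as were 63.9% of all genes. By limma none passed, while 7 had an unadjusted p under 0.05, where 10.1% of all genes did. These were lok, Rbf, RPA1, CycB, DNAlig1 and PolE1 above 0, where 8.65% of genes were, and Orc2 below it, where 1.49% were. The arrays of the 2 groups did not overlap for lok, RPA1, Rbf and PolE1, higher in smg, and for Orc2 and CycH, lower in smg, 6 of 35 members. Over all genes that share was 9.7%, with 5.66% higher and 4.04% lower. Once smg replicate 3 had its sign turned, the median was 0.22, against 0.06 over all genes, and 24 of the 35 estimates (68.6%) were above 0, as were 55.2% of all genes. The differences of twe and Orc1 were then near 0, and those of CycT (-0.79), CycY (-0.70), CycE (-0.65), Cdk8 (-0.37) and Rbf2 (-0.31) had gone below 0. Of the 6 members without overlap 1, CycH, was left after the turn, where 4.47% of genes had none. Without smg replicate 3 the 6 members and RPA3 had no overlap, where 12.2% of genes had none. With slide set as a block 4 members passed, CycB, RPA1, Rbf and lok, where 4.06% of all genes passed. Without smg replicate 1, lok (3.13), Rbf (2.95) and RPA1 (2.82) passed, with limma adjusted p between 0.0274 and 0.0341, where 3.41% of genes passed. No member passed when any other array was left out, where 0% to 0.483% of genes did. Against oocytes the smg mean had a median over members of 0.20, with 0.13 over all genes, and of -0.31 once replicate 3 had its sign turned, with 0.03 over all genes. In that comparison 2 members had an unadjusted p under 0.05, where 10.4% of genes did: Orc2 (-0.81, limma adjusted p = 0.430) and Cdk8 (0.80, limma adjusted p = 0.432). With the sign turned each was at -0.09.

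**Figure D4:**
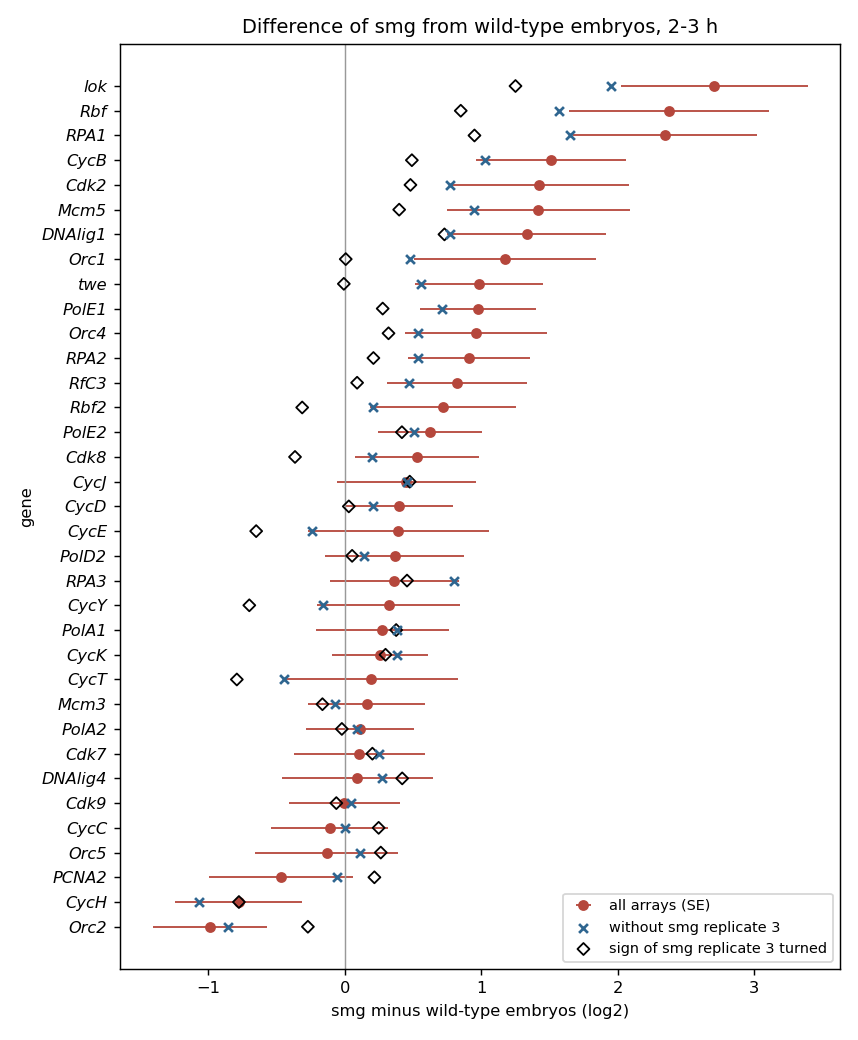
Difference of smg from wild-type embryos (log2, horizontal) for the 35 members tested (vertical), with all arrays and SE (filled circles), without smg replicate 3 (crosses) and with the sign of that array turned (diamonds). lok, Rbf and RPA1 lie at 2.71, 2.38 and 2.34 with all arrays, and at 1.25, 0.85 and 0.95 with the sign turned.

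In wild-type embryos against oocytes the median over the 37 members was -0.21, against 0.01 over all genes, and 11 members lay below 0 on all their wild-type arrays, where 18.1% of genes did. Besides lok and DNAlig1, 6 members had an unadjusted p under 0.05, all below 0 (Rbf, RPA1, Cdk2, Orc4, CycB and PolE2), so that 8 of 37 did, where 13.6% of genes did in either direction and 10% below 0. With slide set as a block 6 members passed, Cdk2, DNAlig1, Orc4, RPA1, Rbf and lok, where 8.34% of all genes passed. The 8 arrays of 2 to 3 h shared a fit, so the spread of the smg arrays entered the error of the wild-type mean. With the wild-type arrays fitted alone, a setting added after the values were seen, 8 members passed, Cdk2, CycB, DNAlig1, Orc1, Orc4, RPA1, Rbf and lok, where 11.9% of all genes passed. The calls of lok and DNAlig1 were lost when any wild-type array, smg replicate 2 or smg replicate 4 was left out, with limma adjusted p between 0.0537 and 0.212. The lok value then ran between -2.18 and -1.88, and the DNAlig1 value between -1.94 and -1.71.

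Unfertilized eggs undergo egg activation without zygotic transcription, so their comparison with oocytes and with wild-type embryos addresses what occurs without fertilization. The median over the 38 members in unfertilized eggs was -0.26, against 0.02 over all genes, and 20 members lay below 0 on all their arrays there, where 23.8% of genes did. The median difference of wild-type embryos from unfertilized eggs was 0.02 over 37 members. By limma 1 member, CycT, had an unadjusted p under 0.05, where 3.24% of genes did. The arrays did not overlap for 8 of 37 members, where the same held for 14% of genes. Orc1, CycB and PolE1 were lower in wild-type embryos (7.21% of genes were), and Orc2, Cdk8, Rbf2, RPA1 and CycT were higher (6.79% of genes were). The wild-type and unfertilized means of lok were -2.07 and -2.05 and differed by -0.02 (SE 0.67). For RPA1 they differed by 1.001 (SE 0.66) and for Cdk2 by 0.59 (SE 0.64). These intervals are wide, and both means share the oocyte channel.

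**Figure D5:**
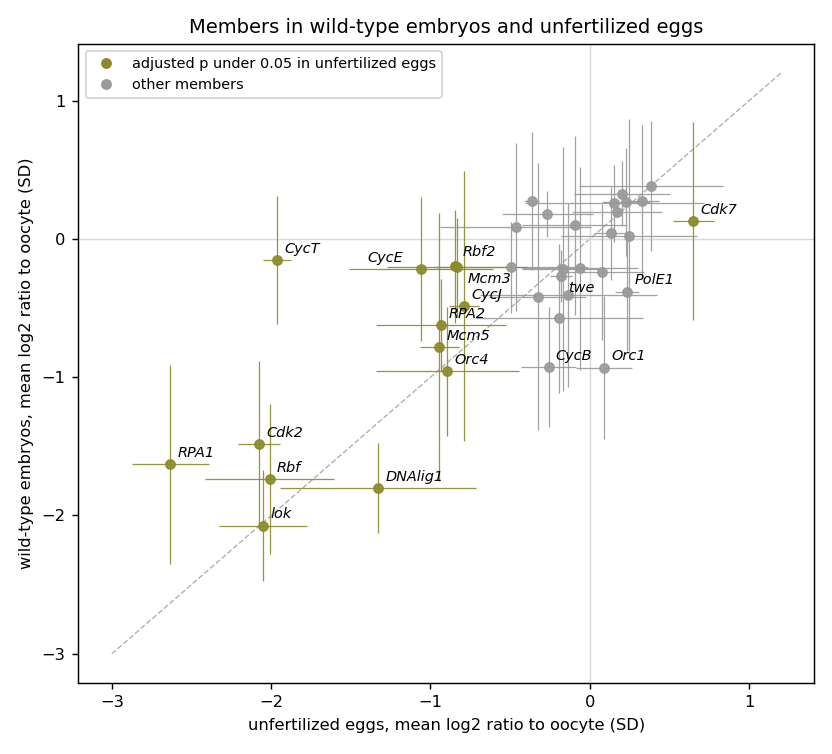
Mean log2 ratio to oocyte in wild-type embryos (vertical) against unfertilized eggs (horizontal) for the members tested in both, with SD bars and a dashed line of equality; members called in unfertilized eggs are in colour. CycT lies farthest above the line, at -0.15 in wild-type embryos and -1.96 in unfertilized eggs, and lok lies on it at -2.07 and -2.05.

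Other genes of the same processes, outside the naming rule, were taken from lists of further replication genes (17 on the array) and cell cycle genes (35). In unfertilized eggs 5 of the 17 replication genes fell: a gene of the chromatin assembly factor Caf1 (-1.96), the exonuclease gene tos (-1.85), the mismatch repair gene Msh6 (-1.005), the helicase gene RecQ4 (-0.74) and the helicase cofactor gene Cdc45 (-0.62). Of the 35 cell cycle genes 8 fell, with the anaphase-promoting complex activator fzr (-1.90), the Cdk-binding subunit Cks30A (-1.41), and the cohesin subunits SMC3 (-1.33) and SMC1 (-1.31) the lowest. None rose in either list, and 10% of all genes were called lower there. In wild-type embryos 1 of 16 replication genes fell, tos (-2.02, limma adjusted p = 0.0465), and 0 of 33 cell cycle genes passed by limma (9 at an unadjusted p under 0.05). Over all genes 2.48% were called lower and 13.6% had an unadjusted p under 0.05. Between smg and wild-type embryos 0 of 16 and 0 of 32 passed by limma (3 and 7 at an unadjusted p under 0.05, where 10.1% of genes were). The list medians were 0.76 and 0.72, against 0.17 over all genes, and -0.03 and 0.08 with smg replicate 3 turned, against 0.06 over all genes. The highest were Cdc45 (2.14, limma adjusted p = 0.228) and SMC1 (1.99, limma adjusted p = 0.154), at 1.22 and 0.73 after the turn.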

How the data were processed

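Per the submitters' design text, total RNA was reverse transcribed with random primers and hybridised to 12Kv1 cDNA arrays, scans were read with QuantArray 3.0, and GeneTraffic Duo 3.2 normalized the ratios by rank-invariant LOWESS. The sources used here do not say how background was corrected or spots were filtered. The authors deposited 1 log2 ratio per spot and array, without channel intensities. Base 2 is an inference from the lowest value, -11.92, which is beyond the range of natural logarithms for 16-bit signals. Of 27648 spots, 15116 carried a single gene in the platform's probe table, and they gave 6793 genes.

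Spots of a gene were averaged, and each array's gene median was subtracted. Of the 38 members, 28 had a value on all 11 arrays, and 33 had 2 spots and 5 had 4. The median difference within a pair of spots was 0.203. A gene was tested with a value on at least 3 of 4 arrays in each 2 to 3 h group compared and on 2 of 3 unfertilized arrays. limma 3.58.1 (lmFit, then eBayes; R 4.3.3) gave two-sided p-values, adjusted by Benjamini-Hochberg over all genes tested. The 8 arrays of 2 to 3 h shared a fit, unfertilized arrays were fitted alone, and all 11 served wild-type embryos against unfertilized eggs. The oocyte channel was the control, and no oocyte sample was hybridised against it, so group means were tested against 0. The procedure was tested on simulated data with independent values and the same spread for all genes and arrays. That simulation does not cover the unequal spread of the real arrays or correlations between them. Alternatives changed the centring, spread, spot summary, filters, arrays, slide sets and the sign of smg replicate 3. Values on every array are given for members called in any comparison, for lok and twe, for members whose smg and wild-type arrays did not overlap, and for the largest wild-type mean and largest difference in each role; other members were added where useful. The members and lists were chosen with earlier results of these data known. The number of arrays limits the precision.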

Additional observations from a re-analysis of the deposited data

Results flagged for a closer look

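Groups of 4 arrays were examined for each member and for the median of the members. Of these, 7 of 60 (11.67%), all of single members, held an array whose gap to its nearest neighbour took up most of the group's range. Chance gives about 5%. In smg these were CycK on replicate 3 (-0.088, with the nearest array at 0.38) and DNAlig4 on replicate 1 (1.29, nearest -0.40). In wild-type embryos, 4 of the 5 were replicate 1: Cdk7 (1.19, nearest -0.15), Cdk9 (0.85, nearest 0.08), CycK (0.54, nearest -0.10) and RPA3 (1.08, nearest 0.18), all above the other arrays. The fifth was Orc4 on replicate 2 (-1.65, nearest -0.81). On wild-type replicate 1 and smg replicate 1, 48.9% and 51.1% of spots had a value; the part of this in the flags was not tested.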

How the results depend on the processing

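No paired analysis was possible because the replicate numbers, given in deposition order, match no smg array to a wild-type one. The 2 slide sets, drawn here from the slide numbers in the titles and each holding 2 arrays of both, served as a block. Shares of all genes called are in parentheses. In wild-type embryos against oocytes the 2 called members (3.3%) became 0 as deposited (0%) and 0 without the 2 arrays of low median (1.3%). They became 5 with the spread of arrays made alike (9.23%), 6 with the block (8.34%) and 5 with all 11 arrays in a fit (6.43%). With that group alone, a setting added after the data were seen, 8 were called (11.9%). When an array was left out, 0 to 5 were called (0.615% to 7.93%). The median of members there (-0.21) was -1.22 as deposited, where that of all genes was -0.66, and -0.39 with a value required on every array. In smg against oocytes 0 were called throughout (0% to 0.567%), and the median of 0.20 was -0.82 as deposited. Cdk8 (0.80) turned to -0.31 as deposited and to -0.092 with the sign of smg replicate 3 turned. In smg against wild-type embryos the 0 called (0.276%) became 3 with the spread alike (2.62%), 4 with the block (4.06%), 1 with all 11 arrays (1.23%) and 0 to 3 when an array was left out (3, namely RPA1, Rbf and lok, without smg replicate 1, where 3.41% of genes were), and the median of 0.40 was 0.99 within the second slide set. In unfertilized eggs 11 to 15 members were called when an array was left out (7.32% to 11%). The median of -0.26 was -0.12 when centred on genes measured everywhere. Wild-type embryos against unfertilized eggs gave 1 call, CycT, with the spread alike (0.854%) and a median of -0.93 as deposited. The causes were not tested. Signal over background was not available.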
